A study of Mus musculus with 10 samples.

Results

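The enzymes that write, copy and remove DNA methylation, together with the Polycomb EZH methyltransferases, were followed across mouse skin cells that carry an activated Hedgehog pathway and have lost or gained Survivin. The genes were Dnmt1, Uhrf1, Hells, Dnmt3a, Dnmt3b, Tet1, Tet2, Tet3, Ezh1 and Ezh2. They were picked by symbol and make up 10 of the 49671 gene rows of the deposited table, and all 10 passed the filter on low values, as did 21995 genes in all. The cells were epidermal epithelial cells isolated for their expression of SmoM2-YFP, in which an activated Smoothened, the signal transducer of Hedgehog, is joined to a fluorescent protein, which drives basal cell carcinoma in mice. There were 5 groups of 2 libraries, and every group carried Rosa-SmoM2. The Survivin loss-of-function (LOF) group was Krt14-CREER/Rosa-SmoM2/Survivin LOF at 6 weeks. The Survivin gain-of-function (GOF) group was Inv-CREER/Rosa-SmoM2/Krt14rtTA/Survivin-GOF at 8 weeks. Their references were Krt14-CREER/Rosa-SmoM2 at 8 weeks and at 6 weeks (the Krt14 groups) and Inv-CREER/Rosa-SmoM2 at 8 weeks (the Inv group). On build GRCm38 the genes lie at chr9:20907209-20959888 (Dnmt1), chr17:56303321-56323486 (Uhrf1), chr19:38930915-38971051 (Hells), chr12:3806007-3914443 (Dnmt3a), chr2:153649450-153687730 (Dnmt3b), chr10:62804570-62908996 (Tet1), chr3:133463679-133545139 (Tet2), chr6:83362373-83459084 (Tet3), chr11:101191115-101226463 (Ezh1) and chr6:47530139-47595341 (Ezh2), and all are protein-coding. Krt14-CREER acts in basal keratinocytes, whereas Inv-CREER uses the promoter of involucrin, a gene of differentiating keratinocytes. The weeks are followed by TAM in the titles, read here as tamoxifen, the drug that switches the recombinase on, and ages of the mice are not given in the labels. Both Inv control libraries are called pools in the sample descriptions. Krt14rtTA is named for the GOF libraries and not for the Inv libraries, so its part cannot be told apart from that of Survivin. The labels do not say that the libraries of a group came from separate animals, so the p-values below measure only the spread between libraries.

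Cytosine methylation at CpG sites is copied after each round of DNA replication. Dnmt1 is the maintenance methyltransferase that does the copying. Uhrf1 brings it to hemimethylated DNA, and Hells is a chromatin remodeller that opens chromatin to the methylation machinery. Dnmt3a and Dnmt3b are the de novo methyltransferases, which place methyl groups on unmethylated sites. Tet1, Tet2 and Tet3 are dioxygenases that oxidise methylcytosine, the first step of active demethylation. Ezh1 and Ezh2 are the alternative catalytic subunits of Polycomb repressive complex 2 (PRC2), which methylates a lysine of histone H3 and keeps genes silent. In skin, Dnmt1 and Uhrf1 are known to keep epidermal progenitors dividing, and Ezh2 is the form typical of dividing cells while Ezh1 is the one found in quiescent and differentiated cells.

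Of the 5 genes lower in the GOF libraries, sequence next to an annotated start is shown for the 4 that held an E2F-type word. The word was not the same in all 4. The other gene, Tet1, held none and is not shown. Whether these words bear on the changes was not tested. E2F factors are the classic activators of genes needed for DNA replication. Windows of 300 bases from RefSeq on build GRCm38.p6, 250 before and 50 after each annotated start, were available for 10 of the 10 genes. They were searched on both strands for the E2F-type words TTTCCCGC, TTTCGCGC, TTTGCCGC and TTTGGCGC. Dnmt1, Uhrf1, Hells and Ezh2 held a match in at least 1 window, and Dnmt3a, Dnmt3b, Tet1, Tet2, Tet3 and Ezh1 held none. Of all 32851 RefSeq windows of this length, 2.26% held a match, as did any window of 704 of 27025 genes, and among the 11153 windows with a CpG observed-to-expected ratio of at least 0.6 the share was 5.07%. Of 23 S phase genes with a window, 9 held a match, and of 16 G2/M genes 1 did. The stretches below are 250 bases each, read 5′ to 3′ on the gene's strand, with the E2F-type match in capitals. They are chr9:20952624-20952873 on the minus strand for Dnmt1, chr17:56304063-56304312 on the plus strand for Uhrf1, chr19:38930740-38930989 on the plus strand for Hells, chr6:47595020-47595269 on the minus strand for Ezh2 and chr11:101226464-101226713 on the minus strand for Ezh1, which is shown as the gene that went the other way. The first 3 and that of Ezh1 end at the base before the RefSeq start of the window, and that of Ezh2 ends 11 bases past it. By the gene spans given above, the stretches of Dnmt1, Uhrf1 and Ezh2 lie inside the gene. That of Hells runs into its gene, and that of Ezh1 lies outside. All 4 matches in capitals lie inside the gene spans.
Dnmt1: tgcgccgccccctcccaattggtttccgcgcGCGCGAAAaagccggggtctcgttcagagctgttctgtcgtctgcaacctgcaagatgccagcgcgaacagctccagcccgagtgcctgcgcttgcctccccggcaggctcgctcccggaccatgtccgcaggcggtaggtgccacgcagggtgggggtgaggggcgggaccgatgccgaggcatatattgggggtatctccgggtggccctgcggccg
Uhrf1: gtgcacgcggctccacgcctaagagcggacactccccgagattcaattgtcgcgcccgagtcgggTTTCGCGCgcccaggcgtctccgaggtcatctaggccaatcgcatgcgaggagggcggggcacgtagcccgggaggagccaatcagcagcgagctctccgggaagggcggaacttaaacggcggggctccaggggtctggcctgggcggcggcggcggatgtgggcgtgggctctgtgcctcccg
Hells: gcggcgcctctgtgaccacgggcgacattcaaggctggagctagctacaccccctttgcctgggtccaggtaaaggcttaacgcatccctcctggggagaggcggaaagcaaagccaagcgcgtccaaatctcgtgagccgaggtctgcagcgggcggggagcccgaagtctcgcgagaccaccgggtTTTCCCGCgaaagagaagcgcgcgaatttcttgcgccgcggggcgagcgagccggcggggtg
Ezh2: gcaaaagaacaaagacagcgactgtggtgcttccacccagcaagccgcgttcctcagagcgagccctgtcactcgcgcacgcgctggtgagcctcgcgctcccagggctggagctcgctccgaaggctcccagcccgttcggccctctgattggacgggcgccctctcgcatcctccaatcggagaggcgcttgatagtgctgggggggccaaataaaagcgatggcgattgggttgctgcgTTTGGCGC
Ezh1: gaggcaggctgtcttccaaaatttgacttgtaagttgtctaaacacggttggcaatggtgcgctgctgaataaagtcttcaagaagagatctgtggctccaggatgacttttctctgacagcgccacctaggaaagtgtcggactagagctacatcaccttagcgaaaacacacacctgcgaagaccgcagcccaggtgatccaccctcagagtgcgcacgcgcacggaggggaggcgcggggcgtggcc
The match began 219 bases before the start of the window shown in Dnmt1, on the reverse strand. It began 185 bases before that start in Uhrf1 and 62 bases before it in Hells. The match of Ezh2 lay just after the start. The Dnmt1 window is 1 of 3 for that gene and the Uhrf1 window 1 of 2, and the remaining windows of both held no match. The other annotated starts of both genes lie further upstream, so the matches come after those starts. The Dnmt1 window held 1 more match, 33 bases after the start and outside the stretch shown. A CCAAT word was present in any window of 4 of the 10 genes, and the word TTTGAA in any window of 2. Of all single windows, 37.4% held the first word and 17.9% the second. The 10 genes had 15 windows, so a count of genes and a share of windows are unlike measures. No match to 1 of the 3 motifs overlapped a match to another. These matches are a description of letters and do not show that a factor binds.

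The libraries held between 7693153 and 8870758 reads assigned to genes, as recovered from the deposited values. Birc5, the gene of Survivin, had 382 and 429 normalized counts in LOF libraries, against 961 and 1103 in Krt14 6-week libraries, and 7277 and 16384 in GOF libraries, against 237 and 265 in Inv libraries. The keratinocyte markers Krt5, Krt14, Epcam, Cdh1 and Trp63 were all present, and their summed count lay between 139804 and 288667. Of 8 leukocyte markers the sum was 221 to 428, with Lyz2 at 0 in the LOF, GOF and Krt14 6-week libraries. The sum was 340 and 428 in LOF libraries, against 247 and 230 in Krt14 6-week libraries, and 1 of the 5 markers tested was higher there by limma. Cd207 had 25 and 55 counts in LOF libraries, against 0 and 6. In GOF libraries the sum was 318 and 358, against 248 and 221 in Inv libraries, and 0 of the 5 passed. Of 8 fibroblast and endothelial markers, 2 were higher and 1 lower in LOF than in Krt14 6-week libraries. Dcn had 17993 and 18053 counts in LOF libraries, against 2205 and 1163 in Krt14 6-week libraries (limma adjusted p = 8.06e-05), and Col1a2 had 647 and 1006 in LOF libraries, against 137 and 19 in Krt14 6-week libraries (limma adjusted p = 0.00126). In GOF libraries 0 of the 8 passed against Inv libraries by limma, although GOF replicate 2 had 294 counts of the endothelial Kdr and 221 of Cdh5, the highest of the 10 libraries. The list's sum, mostly Dcn, was 18870 and 19258 in LOF libraries, against 2797 and 1483 in Krt14 6-week libraries, and 37871 and 15606 in GOF libraries, against 18122 and 20208 in Inv libraries. Kdr was at 0 in both LOF libraries. Col1a1 reached at most 218 and Pdgfra at most 26 in any library. The summed sebaceous markers were 47884 and 62661 in GOF libraries, against 164167 and 166042 in Inv libraries, and 30331 and 46185 in LOF libraries, against 16053 and 15449 in Krt14 6-week libraries. Xist, which is made from the inactive X of female cells, had 30024 and 59594 counts in LOF libraries and 7589 and 56185 in GOF libraries, against 51 to 194 in the other 6. The Y-linked Ddx3y was present in every library, at 956 to 3328. The sex of the mice is not used here. No gene of the 10 is on a sex chromosome, and the part of this difference in their values was not tested. The summed melanocyte markers were 3175 and 3016 in LOF libraries, against 942 and 901 in Krt14 6-week libraries, and the summed genes of tissue dissociation were 23020 and 33938 in GOF libraries, against 18168 and 14871 in Inv libraries. The part of these other cell types and of dissociation was not tested either. The GOF libraries were the least alike over the 10 genes. Their median absolute difference was 0.37 on the log2 scale, against 0.09 to 0.12 in the other groups. Replicate 2 was below replicate 1 for 8 of the 10 genes in the GOF group. That count was 8 in the Krt14 8-week, 9 in the Krt14 6-week, 7 in the LOF and 5 in the Inv group. In bulk samples of this kind, fewer cells of a type and less RNA per cell cannot be told apart.

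Levels of different genes were compared as normalized counts per kilobase of merged exons. Averaged over the 10 libraries, Dnmt1 was the most abundant at 743 per kilobase, followed by Uhrf1 at 581 and Tet3 at 526. Tet2, Ezh2 and Hells followed at 303, 297 and 259 per kilobase, and Ezh1 and Dnmt3a at 158 and 134. Dnmt3b and Tet1 were the lowest, at 46.0 and 45.9 per kilobase. With the length of the longest coding transcript in place of merged exons, an alternative chosen after seeing the data, Dnmt1 still came first at 934 per kilobase, with Tet3 at 806 and Ezh2 at 712 ahead of Uhrf1 at 690. Between libraries Tet1 varied most, by 6.21-fold from its lowest library to its highest, and Dnmt3a least, by 1.35-fold.

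**Figure D1:**
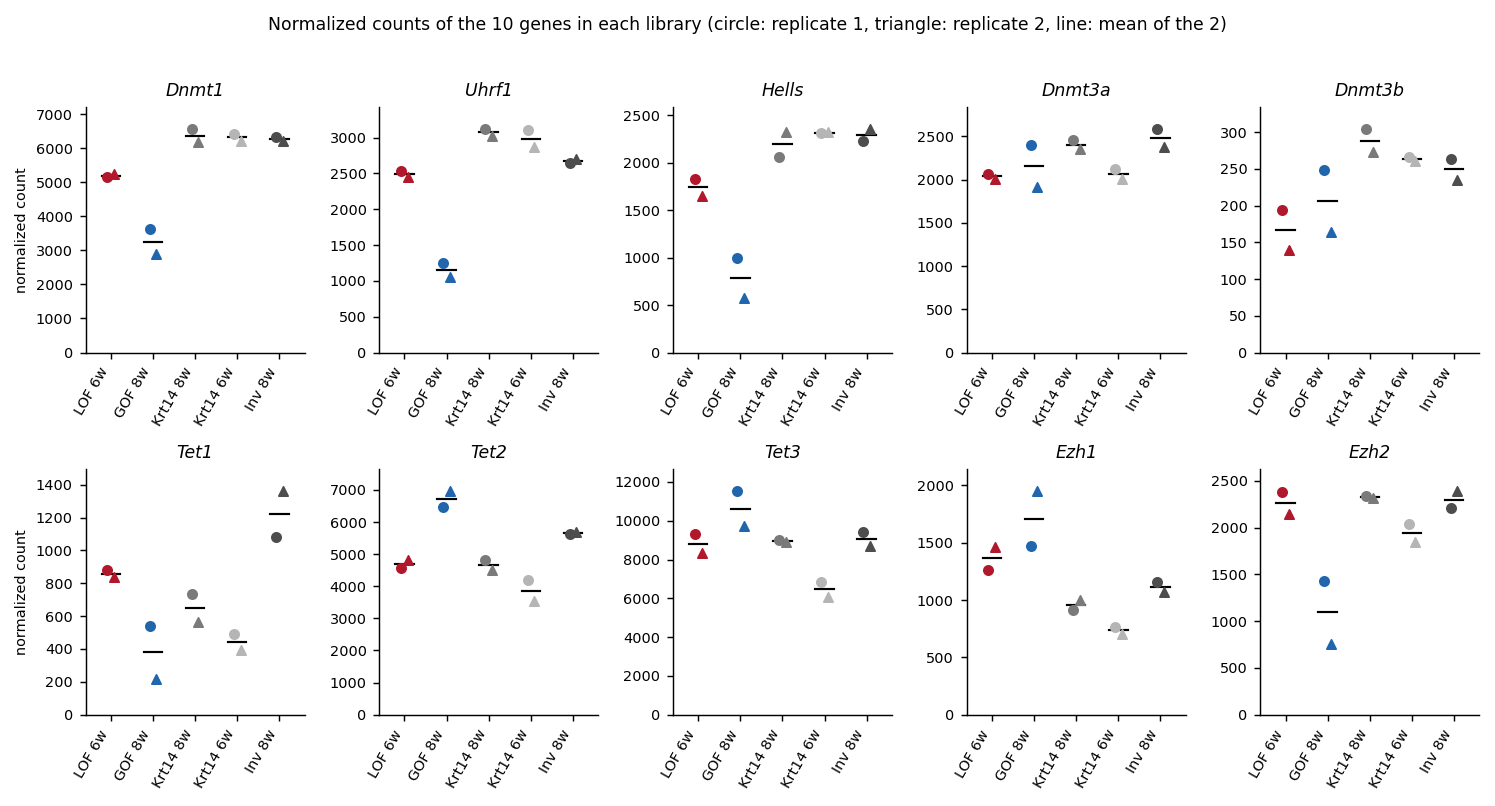
Normalized counts (vertical axes, from 0) of the 10 genes in each library. The groups run from LOF and GOF on the left to Krt14 8-week, Krt14 6-week and Inv on the right, with a circle for replicate 1, a triangle for replicate 2 and a line at the mean of the 2 libraries. The GOF libraries are the lowest for Dnmt1, Uhrf1, Hells and Ezh2, whereas both GOF libraries are the highest for Ezh1 and Tet2.

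In GOF cells the genes that copy DNA methylation fell together with Ezh2 and Tet1, while Ezh1 rose. Set against Inv libraries, 1 of the 10 genes was higher and 5 were lower in GOF libraries at an adjusted p under 0.05, in a comparison where 15.3% of all genes tested changed, 6.87% upward and 8.4% downward. Their median log2 change was -0.63, against -0.01 over all genes tested. In LOF cells a partly different set of genes passed. Only Tet1 (log2 change 0.96 in LOF, -1.81 in GOF) and Ezh2 (0.22 in LOF, -1.14 in GOF) had opposite signs in the 2 comparisons. The LOF change of Ezh2 did not pass. Set against Krt14 6-week libraries, 4 of the 10 genes were higher (Ezh1, Tet1, Tet3 and Tet2) and 1 was lower (Dnmt3b), where 30.9% of all genes changed, 19.5% upward and 11.4% downward. The median log2 change of the 10 genes was 0.10, against 0.16 over all genes, and the split depends on the scaling: after rescaling by the median of ratios, which moves the median of all genes to 0.02, 2 were higher and 4 lower, and over all genes 3347 were higher and 3482 lower, against 4294 and 2511 without it. By library values alone, GOF libraries were both above both Inv libraries for 3 of the 10 genes and below for 5, against 27.0% and 27.9% of all genes. LOF libraries were above both Krt14 6-week libraries for 5 genes and below for 4, against 40.8% and 25.8% of all genes.

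**Figure D2:**
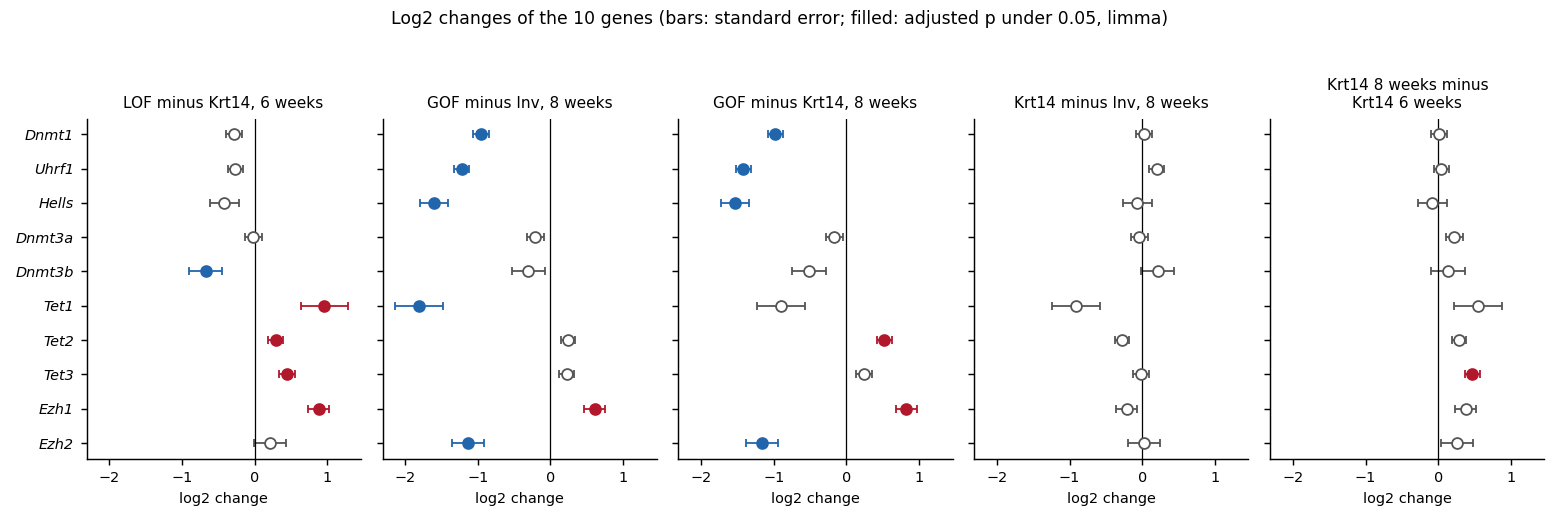
Log2 changes of the 10 genes (rows) in the 5 comparisons (panels), with bars for the standard error. Filled points passed an adjusted p of 0.05 in limma, red above 0 and blue below 0, and open points did not. Dnmt1, Uhrf1, Hells and Ezh2 lie left of 0 in both GOF panels, and Ezh1 lies right of 0 in the LOF and both GOF panels.

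Among the maintenance genes, Dnmt1 had 3639 and 2881 normalized counts in GOF libraries, against 6323 and 6210 in Inv libraries. The groups did not overlap, and Dnmt1 was 1.93-fold lower in GOF libraries (log2 change -0.95, SE 0.11, limma adjusted p = 0.000316). Uhrf1, the factor that recruits Dnmt1, had 1248 and 1059 counts in GOF libraries, against 2651 and 2699 in Inv libraries. Here too the groups did not overlap, and the change was 2.33-fold (log2 -1.22, SE 0.10, limma adjusted p = 4.69e-05). Hells had 994 and 575 counts in GOF libraries, against 2235 and 2356 in Inv libraries. It had the lowest ratio of the 3 genes, 3.03-fold lower (log2 -1.60, SE 0.20, limma adjusted p = 0.00055), and its GOF libraries differed most from each other. These 3 calls held in all 20 alternative settings, with log2 changes of -1.12 to -0.78 for Dnmt1, -1.34 to -1.10 for Uhrf1 and -1.99 to -1.21 for Hells.

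In LOF libraries the same 3 genes were each below both Krt14 6-week libraries but did not pass the test. Dnmt1 had 5149 and 5229 counts in LOF libraries, against 6413 and 6222 in Krt14 6-week libraries (log2 change -0.28, SE 0.11, limma adjusted p = 0.0686). Uhrf1 had 2530 and 2444 counts in LOF libraries, against 3103 and 2872 in Krt14 6-week libraries (log2 change -0.26, SE 0.10, limma adjusted p = 0.0752). Hells had 1834 and 1649 counts in LOF libraries, against 2315 and 2322 in Krt14 6-week libraries (log2 change -0.41, SE 0.20, limma adjusted p = 0.140). No LOF library reached its reference libraries for any of these genes. The calls turned on the settings: after median of ratios rescaling all 3 passed, at -0.43, -0.41 and -0.56 for Dnmt1, Uhrf1 and Hells. They also passed, with the log2 changes as above, when either GOF library was left out of the shared fit, at limma adjusted p of 0.00484 to 0.0175, or when only the groups compared were fitted. The LOF effect and the GOF effect were compared directly as the LOF minus Krt14 6-week change less the GOF minus Inv change. This difference was 0.67 for Dnmt1 (SE 0.15, limma adjusted p = 0.00938), 0.95 for Uhrf1 (SE 0.15, limma adjusted p = 0.00101) and 1.19 for Hells (SE 0.28, limma adjusted p = 0.0113), in a contrast where 5 of the 10 genes passed, all above 0, as did 23.7% of all genes, 15.3% above 0 and 8.34% below. Without Inv replicate 2 the difference for Hells was 1.15 and no longer passed (limma adjusted p = 0.0542). The change of each was more negative in GOF than in LOF cells, although drivers and weeks differ between the 2 pairs of groups.

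Of the de novo methyltransferases, Dnmt3b was lower in LOF cells and Dnmt3a passed in neither comparison. Dnmt3a had 2400 and 1914 counts in GOF libraries, against 2583 and 2371 in Inv libraries, and the groups overlapped (log2 change -0.21, 95% interval -0.46 to 0.05, limma adjusted p = 0.268). Without GOF replicate 1 that change was -0.37 and passed (limma adjusted p = 0.0167). In LOF libraries Dnmt3a had 2067 and 2007 counts, against 2126 and 2002 in Krt14 6-week libraries (log2 change -0.02, 95% interval -0.27 to 0.24). Those groups overlapped as well. Dnmt3b had 194 and 140 counts in LOF libraries, against 266 and 261 in Krt14 6-week libraries, and it was 1.60-fold lower with groups that did not overlap (log2 change -0.67, SE 0.23, limma adjusted p = 0.0478). That call was near the threshold. It held in 12 of 20 alternative settings and was lost without LOF replicate 2, where the change was -0.44 (limma adjusted p = 0.296). It was also lost without either Krt14 6-week library (-0.66 without replicate 1 and -0.69 without replicate 2), and without either Krt14 8-week or either Inv library at the same change of -0.67. After median of ratios rescaling the change was -0.82 and passed. In GOF libraries Dnmt3b had 248 and 164 counts, against 264 and 235 in Inv libraries, which overlap (log2 change -0.30, 95% interval -0.82 to 0.21).

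The 3 Tet genes did not move as 1 group. Tet1 had 542 and 219 counts in GOF libraries, against 1079 and 1360 in Inv libraries. Both GOF libraries were below both Inv libraries, and Tet1 was 3.51-fold lower (log2 change -1.81, SE 0.33, limma adjusted p = 0.00485). The size of the change depended on GOF replicate 2: without it the change was -1.16 (limma adjusted p = 0.00558), and without Inv replicate 2 it was -1.64 and did not pass (limma adjusted p = 0.0683). It did not pass either with only the groups compared in the fit (limma adjusted p = 0.0770). In LOF libraries Tet1 stood at 878 and 837 counts, against 493 and 393 in Krt14 6-week libraries. The groups did not overlap, and Tet1 was 1.95-fold higher (log2 change 0.96, SE 0.33, limma adjusted p = 0.0459). This call held in 9 of 20 alternative settings. It was lost after median of ratios rescaling (0.82, limma adjusted p = 0.0625) and on leaving out any library outside the GOF group, at changes of 0.80 without Krt14 6-week replicate 2 to 1.12 without Krt14 6-week replicate 1. The difference between the LOF and GOF effects was the largest of the 10 genes for Tet1, at 2.77 (SE 0.46, limma adjusted p = 0.00173), and it passed in all 10 fits that left out 1 library.

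Tet2 had 6464 and 6957 counts in GOF libraries, against 5641 and 5700 in Inv libraries. The GOF libraries were the higher ones, but the change did not pass (log2 0.24, SE 0.10, limma adjusted p = 0.131). In LOF libraries Tet2 had 4567 and 4825 counts, against 4180 and 3526 in Krt14 6-week libraries (log2 change 0.29, SE 0.10, limma adjusted p = 0.0477). The groups did not overlap, yet the call rested on the scaling and on single libraries: the change was 0.15 after median of ratios rescaling (limma adjusted p = 0.323) and 0.17 without Krt14 6-week replicate 2 (limma adjusted p = 0.348). It was also lost at 0.33 without LOF replicate 1, at 0.25 without LOF replicate 2, and at the same 0.29 without any 1 of the Krt14 8-week or Inv libraries or with the replicate number as a block (limma adjusted p = 0.0603). Tet3, the most abundant of the 3 per kilobase, had 9319 and 8331 counts in LOF libraries, against 6867 and 6064 in Krt14 6-week libraries. It was 1.37-fold higher with no overlap (log2 change 0.45, SE 0.11, limma adjusted p = 0.00923). It was 0.37 and did not pass without LOF replicate 1 (limma adjusted p = 0.0780), and it was 0.36 and did not pass without Krt14 6-week replicate 2 (limma adjusted p = 0.0897). In GOF libraries Tet3 had 11520 and 9739 counts, against 9443 and 8723 in Inv libraries, and did not pass (log2 change 0.22, SE 0.11, limma adjusted p = 0.194). Neither Tet2 nor Tet3 differed in its LOF and GOF effects beyond the error (0.05, 95% interval -0.26 to 0.36, and 0.23, 95% interval -0.11 to 0.56).

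The 2 EZH subunits went opposite ways in GOF cells. Ezh2 had 1431 and 760 counts in GOF libraries, against 2210 and 2387 in Inv libraries. The groups did not overlap, and Ezh2 was 2.20-fold lower (log2 change -1.14, SE 0.22, limma adjusted p = 0.00658). Replicate 2 of GOF was the lower by far: without it the change was -0.68 and passed (limma adjusted p = 0.00331), and without replicate 1 of the Inv group it was -1.19 (limma adjusted p = 0.0524) or without replicate 2 of that group -1.08 (limma adjusted p = 0.0756). Ezh1 had 1472 and 1948 counts in GOF libraries, against 1154 and 1066 in Inv libraries, and was 1.53-fold higher without overlap (log2 change 0.61, SE 0.15, limma adjusted p = 0.0180). That call was lost without GOF replicate 2 (0.41, limma adjusted p = 0.0808), without Inv replicate 1 (0.67, limma adjusted p = 0.0781) and without Inv replicate 2 (0.55, limma adjusted p = 0.139). With only the groups compared in the fit, neither Ezh1 nor Ezh2 passed (limma adjusted p = 0.119 and 0.0961).

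In LOF cells Ezh1 rose as well. It had 1259 and 1466 counts in LOF libraries, against 767 and 706 in Krt14 6-week libraries, which is 1.85-fold higher with no overlap (log2 change 0.88, SE 0.15, limma adjusted p = 0.00117). Of the 5 calls in this comparison it was the only one that held in all 20 alternative settings, with changes of 0.74 to 0.99. Ezh2 had 2382 and 2140 counts in LOF libraries, against 2033 and 1850 in Krt14 6-week libraries (log2 change 0.22, SE 0.22, 95% interval -0.27 to 0.70, limma adjusted p = 0.489). The LOF libraries were the higher ones, and the fit did not separate them from their reference. The LOF and GOF effects differed for Ezh2 by 1.36 (SE 0.31, limma adjusted p = 0.00958), a difference of 1.30 that did not pass without Inv replicate 2 (limma adjusted p = 0.0506) and of 0.90 without GOF replicate 2 (limma adjusted p = 0.00134). For Ezh1 the 2 effects differed by 0.27 (95% interval -0.18 to 0.73, limma adjusted p = 0.380). The ratio of Ezh2 to Ezh1 per kilobase followed from this. It was 1.08 and 0.435 in GOF libraries, against 2.13 and 2.49 in Inv libraries, and 2.11 and 1.63 in LOF libraries, against 2.95 and 2.92 in Krt14 6-week libraries. Per kilobase of merged exons, GOF replicate 2 was the 1 library in which Ezh1 exceeded Ezh2. In counts not divided by length, GOF replicate 1 also had Ezh1 (1472) above Ezh2 (1431). A lincRNA, Gm26625, shares 2.61% of the exon bases of Ezh2 on the opposite strand and had 130 to 417 counts. The strand setting is not given in the sources used here, so reads of the pair cannot be told apart there.

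**Figure D3:**
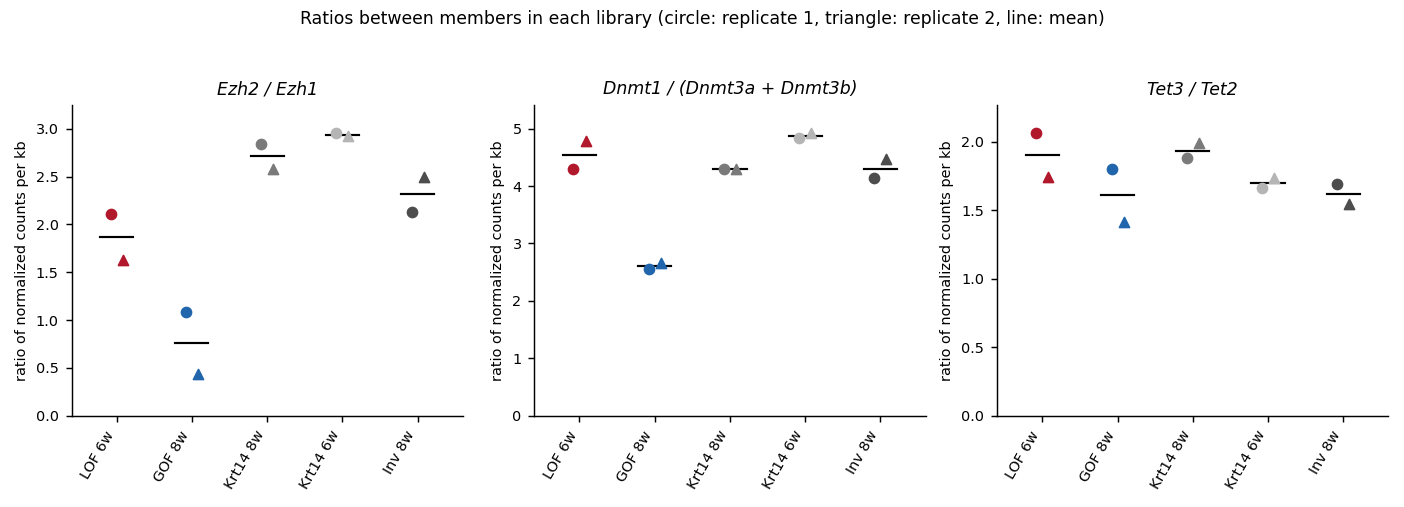
Ratios of normalized counts per kilobase (vertical axes, from 0) in each library, for Ezh2 to Ezh1 (left), Dnmt1 to the sum of Dnmt3a and Dnmt3b (middle) and Tet3 to Tet2 (right), with a circle for replicate 1, a triangle for replicate 2 and a line at the mean. The GOF libraries lie lowest in the left and middle panels, at 1.08 and 0.435 and at 2.56 and 2.65, and the Tet3 to Tet2 ratio runs from 1.41 to 2.06 with no group standing apart.

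As a measure of the balance between copying and de novo enzymes, the ratio of Dnmt1 to Dnmt3a plus Dnmt3b was 2.56 and 2.65 in GOF libraries, against 4.14 and 4.47 in Inv libraries. In LOF libraries it was 4.30 and 4.79, against 4.83 and 4.92 in Krt14 6-week libraries, and in Krt14 8-week libraries 4.30 in both. The GOF libraries stood apart from the other 8, which lay between 4.14 and 4.92. These ratios are descriptions, and their differences were not tested.

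Dnmt1, Uhrf1, Hells and Ezh2 are known to be made mostly in dividing cells, so they were set beside genes of DNA replication. Of 30 S phase genes tested, 28 were lower and 0 higher in GOF than in Inv libraries, against 8.4% and 6.87% of all genes. Their median log2 change was -0.996, with a range of -2.17 to -0.20. Leaving out GOF replicate 2 gave 25 lower, and leaving out Inv replicate 1 gave 19. Ccne1, the cyclin of S phase entry, had 68 and 58 counts in GOF libraries, against 299 and 274 in Inv libraries (log2 change -2.17, limma adjusted p = 6.26e-05). The changes of Dnmt1 (-0.95), Ezh2 (-1.14), Uhrf1 (-1.22), Hells (-1.60) and Tet1 (-1.81) all lay within the range of the S phase genes. That range is wide, and Dnmt3b (-0.30) and Dnmt3a (-0.21), which did not pass, lay within it too. In LOF libraries the changes were -0.28 for Dnmt1, -0.26 for Uhrf1, -0.41 for Hells, 0.22 for Ezh2 and 0.96 for Tet1. Of the 30 S phase genes 5 were lower and 2 higher there, against 11.4% and 19.5% of all genes. Their median was -0.23 and their range -1.17 to 0.82. After median of ratios rescaling 10 were lower and 1 higher, and leaving out 1 of the 4 libraries gave 4 lower each time, with 1 higher without Krt14 6-week replicate 1 and 0 higher without any of the others. Rrm2, a subunit of the enzyme that makes deoxynucleotides, had 1190 and 1026 counts in LOF libraries, against 2480 and 2456 in Krt14 6-week libraries (log2 change -1.16, limma adjusted p = 8.96e-05). Of the genes of G2 and mitosis, 17 of 20 were lower in LOF libraries (median -0.83), where 11.4% of all genes were lower. In GOF libraries 10 of 20 were lower (median -0.45), where 8.4% of all genes were. That GOF count fell when either Inv library was left out. What the change in replication genes contributes to that of the methylation genes was not tested.

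**Figure D4:**
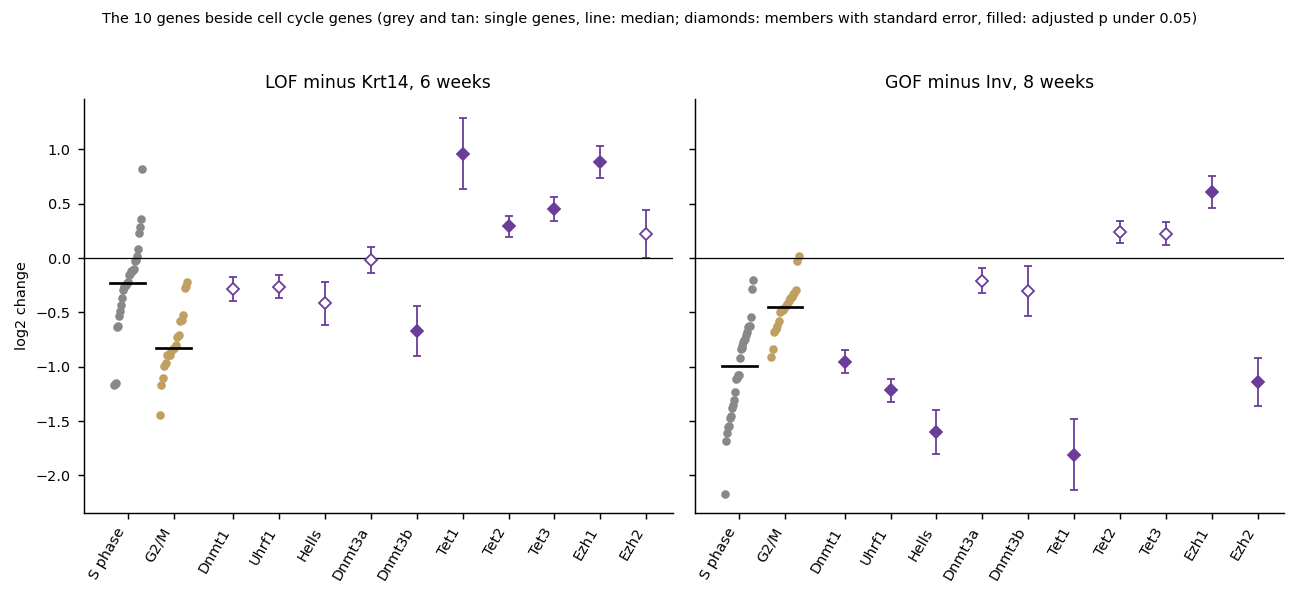
Log2 changes (vertical axis) of single S phase genes (grey, 30 genes), single G2/M genes (tan, 20 genes) and the 10 genes (diamonds with standard error, filled at an adjusted p under 0.05) for LOF minus Krt14 at 6 weeks (left) and GOF minus Inv at 8 weeks (right). Black lines are list medians, -0.23 and -0.83 on the left and -0.996 and -0.45 on the right. On the right, the diamonds of Dnmt1, Uhrf1, Hells, Dnmt3a, Dnmt3b, Tet1 and Ezh2 fall within the span of the S phase genes. Those of Ezh1, Tet2 and Tet3 lie above 0 there.

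Across the 10 libraries the log2 levels of Dnmt1 correlated with those of Uhrf1 (Pearson r = 0.98), Hells (0.98) and Ezh2 (0.90) and ran against Ezh1 (-0.84). The values are descriptions over libraries that share groups and normalization. The values differed without the GOF libraries. Over the 8 libraries without them, Dnmt1 with Uhrf1 was 0.81, Dnmt1 with Hells 0.83 and Dnmt1 with Ezh1 -0.73, but Dnmt1 with Ezh2 was -0.17. In those 8 libraries Ezh2 was closest to Tet3 (0.91), and Tet1 to Tet2 (0.94), a pair at -0.05 over all 10. The genes most like Dnmt1 among 11906 candidates with a mean of at least 50 were Prim1, the small primase subunit, and Hist1h1a, a linker histone (r = 0.99 for each). For Uhrf1 they were Kntc1 and Stmn1, for Hells Naa40, for Dnmt3a St3gal3 and St8sia2, for Dnmt3b Shkbp1 and Dlgap5, and for Tet1 Robo1 and Polr3k. For Tet2 they were Lias and Tmem161b, for Tet3 Pibf1 and Dip2a, for Ezh1 Cir1 and R3hdm2, and for Ezh2 Tfb1m and Gtf2i. These r values lay between 0.96 and 0.99 over 10 libraries.

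The counts in partner lists, here and in the next paragraphs, stand beside the shares of all genes tested. In GOF against Inv libraries 6.87% of all genes were higher and 8.4% lower. For LOF against Krt14 6-week libraries the shares were 19.5% and 11.4%. Of 8 partner genes of maintenance methylation, 4 were lower and 0 higher in GOF than in Inv libraries, with a median log2 change of -0.41. The 4 that did not pass were Zbtb24 at 0.18, Usp7 at 0.15, Uhrf2 at -0.02 and Dmap1 at -0.12. Lig1, the ligase that joins replicated strands and binds Uhrf1, had 1027 and 783 counts in GOF libraries, against 2296 and 2263 in Inv libraries (log2 change -1.34, limma adjusted p = 7.82e-05). Pcna, the replication clamp, had 1431 and 1233 counts in GOF libraries, against 2353 and 2459 in Inv libraries (log2 change -0.86, limma adjusted p = 0.000334). Cdca7, which works with Hells, had 1102 and 809 counts in GOF libraries, against 1959 and 1838 in Inv libraries (log2 change -1.01, limma adjusted p = 0.000996). In each of these the groups were far apart. In LOF libraries 3 of the 8 partners were higher and 0 lower. The largest was Cdca7l, with 2022 and 1994 counts in LOF libraries, against 918 and 915 in Krt14 6-week libraries (log2 change 1.13, limma adjusted p = 0.000335). Cdca7 rose by 0.46 and Zbtb24, a regulator of Cdca7, by 0.48. Leaving out any 1 of the 4 LOF or Krt14 6-week libraries gave 1 higher in place of 3, and after median of ratios rescaling 1 was higher and 2 lower.

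The families of methyl-CpG binding proteins, listed with Mbd3, had 4 of 8 genes higher and 0 lower in LOF libraries. In GOF libraries 2 of these 8 were higher and 0 lower. Without LOF replicate 2 or either Krt14 6-week library, or after median of ratios rescaling, the LOF count was 2, and the GOF count was 0 without either Inv library, 1 without GOF replicate 2 and 4 without GOF replicate 1. Zbtb4 rose in both, at 1517 and 1558 counts in LOF libraries, against 772 and 713 in Krt14 6-week libraries (log2 change 1.05, limma adjusted p = 0.000217), and at 1378 and 1105 counts in GOF libraries, against 913 and 793 in Inv libraries (log2 change 0.54, limma adjusted p = 0.0207). Of the 8 genes that act with the Tet enzymes, 3 were higher in LOF libraries, among them Gadd45a with 246 and 264 counts in LOF libraries, against 103 and 106 in Krt14 6-week libraries (log2 change 1.28, limma adjusted p = 0.00244). In GOF libraries 2 of these 8 were lower, Idh2 (-0.89) and Idh1 (-0.71), the dehydrogenases that make the Tet co-substrate oxoglutarate, and 0 were higher, a count of 1 lower without Inv replicate 2. Among 8 genes of the S-adenosylmethionine cycle, which supplies the methyl groups, Ahcy fell to 464 and 515 counts in LOF libraries, against 1037 and 1132 in Krt14 6-week libraries (log2 change -1.15, limma adjusted p = 0.000165). Ahcy removes the product that inhibits methyltransferases. Shmt2 fell by 0.96 there, Mtr rose by 0.79, and 3 of the 8 were higher and 3 lower in all, or 1 higher and 3 lower after median of ratios rescaling. Without LOF replicate 2 or Krt14 6-week replicate 2 that count was 0 higher and 2 lower. In GOF libraries 1 of the 8 was higher and 1 lower, and 0 were called without GOF replicate 2 or either Inv library.

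The other PRC2 core subunits are Eed, Suz12, Rbbp4 and Rbbp7. In GOF libraries 2 of these 4 were lower and 0 higher: Rbbp7 had 2910 and 2525 counts, against 3978 and 4279 in Inv libraries (log2 change -0.61, limma adjusted p = 0.00226), and Rbbp4 fell by 0.40 (limma adjusted p = 0.0207). The count was 1 without GOF replicate 2 or either Inv library. In LOF libraries 1 of 4 was lower, Eed, with 689 and 774 counts in LOF libraries, against 910 and 953 in Krt14 6-week libraries (log2 change -0.35, limma adjusted p = 0.0494), and this call was lost on leaving out any of those 4 libraries. Of 7 accessory subunits and inhibitors of PRC2 tested, 1 was higher and 2 were lower in LOF libraries. Jarid2, which guides PRC2 to its targets, had 1584 and 1784 counts in LOF libraries, against 2836 and 3611 in Krt14 6-week libraries (log2 change -0.93, limma adjusted p = 0.000531). Aebp2 fell by 0.50. Phf19, a Polycomb-like subunit, went the other way, with 105 and 104 counts in LOF libraries, against 27 and 39 in Krt14 6-week libraries (log2 change 1.66, limma adjusted p = 0.00366). In GOF libraries limma called 0 of the 7 accessory genes tested, with 3 at an unadjusted p under 0.05, and limma-voom on recovered reads also called 0.

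Subunits of Polycomb repressive complex 1 (PRC1) had 8 of 20 genes higher and 1 lower in LOF libraries, against 19.5% and 11.4% of all genes. The count of higher genes was 3 without LOF replicate 2 or Krt14 6-week replicate 2, and 5 after median of ratios rescaling, and the 1 lower gene was not called without any 1 of the 4 libraries. Pcgf2 had 759 and 774 counts in LOF libraries, against 411 and 390 in Krt14 6-week libraries (log2 change 0.94, limma adjusted p = 0.000258), and Cbx2 rose by 0.77. In GOF libraries 3 of 20 were higher and 1 lower, against 6.87% and 8.4% of all genes. Cbx7 had 186 and 242 counts in GOF libraries, against 110 and 82 in Inv libraries (log2 change 1.15, limma adjusted p = 0.0105), and Cbx6 had 195 and 149 counts in GOF libraries, against 471 and 472 in Inv libraries (log2 change -1.46, limma adjusted p = 0.00167). Without GOF replicate 2 or Inv replicate 1 there was 1 higher, without Inv replicate 2 there were 0, and without GOF replicate 1 there were 3 higher and 3 lower. Pcgf5 rose in both, by 0.87 in LOF libraries and by 0.93 in GOF libraries. Of 10 genes that oppose Polycomb, 4 were higher and 1 lower in LOF libraries and 0 higher and 2 lower in GOF libraries. Without Krt14 6-week replicate 2 or LOF replicate 2 the count of higher genes in LOF libraries was 0, and after median of ratios rescaling 1 was higher and 2 lower. In GOF libraries 0 were lower without either Inv library, 1 without GOF replicate 2, and 3 were higher without GOF replicate 1. Kdm6a, the X-linked demethylase of the Polycomb mark, had 2178 and 2654 counts in LOF libraries, against 1457 and 1323 in Krt14 6-week libraries (log2 change 0.79, limma adjusted p = 0.0128). Xist also moved with LOF, as given above, and its part in the values of X-linked genes was not tested.

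**Figure D5:**
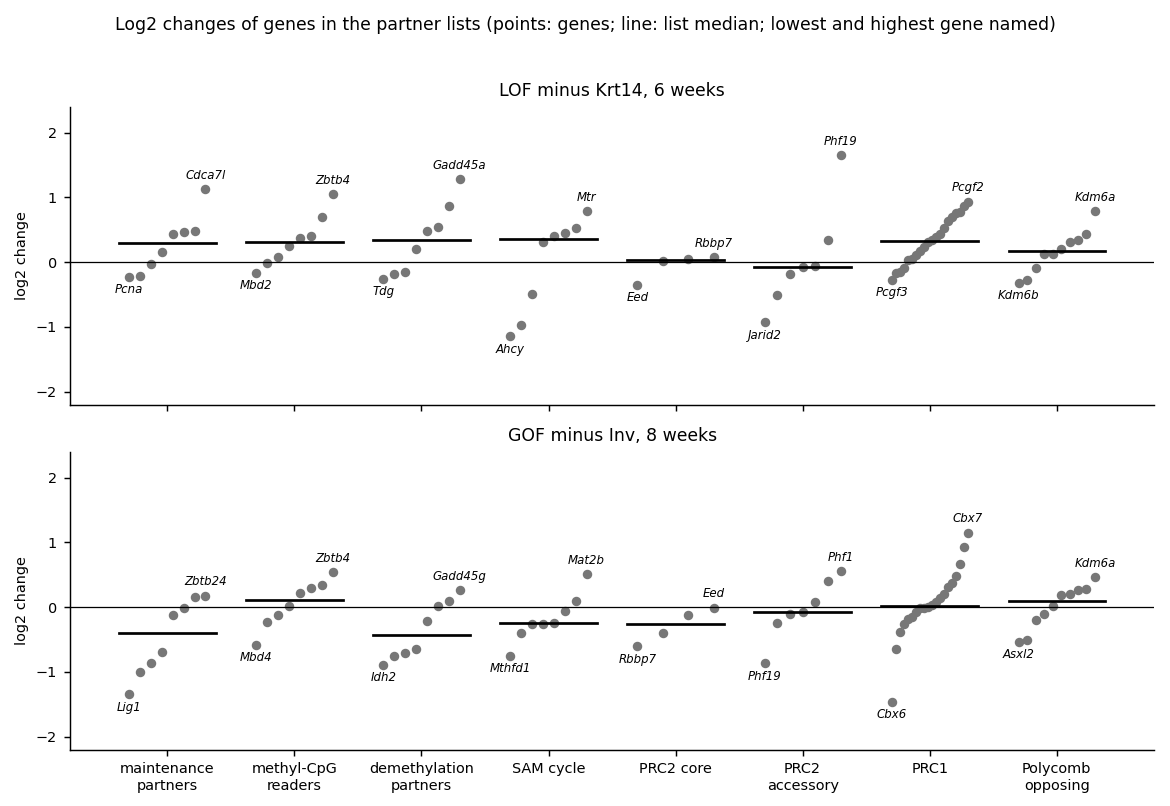
Log2 changes (vertical axes) of the tested genes in 8 lists of partners, for LOF minus Krt14 at 6 weeks (top) and GOF minus Inv at 8 weeks (bottom). Each point is a gene, the line is the list median, and the lowest and highest gene of a list are named. Maintenance partners have a median of 0.30 in the top panel and -0.41 in the bottom panel. The PRC1 median is 0.33 in the top panel and 0.01 in the bottom panel. Over all genes tested the median was 0.16 for the top comparison and -0.01 for the bottom one.

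The control groups differ in driver or in weeks, and in other measured ways. The summed dissociation genes were 55651 and 55947 in Krt14 8-week libraries, against 18168 and 14871 in Inv libraries and 25797 and 25358 in Krt14 6-week libraries. The summed sebaceous markers were 36572 and 33572 in Krt14 8-week libraries, against 164167 and 166042 in Inv libraries and 16053 and 15449 in Krt14 6-week libraries. Dcn had 2235 and 1574 counts in Krt14 8-week libraries, against 17515 and 19565 in Inv libraries, which are pools. The part of these differences in the values below was not tested. Between Krt14 8-week and Inv libraries limma called 0 of the 10 genes, where 19.6% of all genes changed, 8.18% upward and 11.4% downward. By library values, 2 of the 10 genes were above and 3 below without overlap, against 25.4% and 38.5% of all genes. At an unadjusted p under 0.05 there were 2, Tet1 and Tet2, and limma-voom on recovered reads called 1, Tet1. Tet1 had 732 and 564 counts in Krt14 8-week libraries, against 1079 and 1360 in Inv libraries (log2 change -0.91, SE 0.33, limma adjusted p = 0.0765). Tet2 had 4822 and 4517 counts in Krt14 8-week libraries, against 5641 and 5700 in Inv libraries (log2 change -0.28, SE 0.10, limma adjusted p = 0.0747). Both were below the Inv libraries without overlap, and both passed when either GOF library was left out of the shared fit (limma adjusted p of 0.00245 and 0.00257 for Tet1 and of 0.0385 for Tet2). Dnmt1 and Ezh2 were close in the 2 groups: Dnmt1 had 6561 and 6179 counts in Krt14 8-week libraries, against 6323 and 6210 in Inv libraries (log2 change 0.02, 95% interval -0.21 to 0.26), and Ezh2 had 2332 and 2313, against 2210 and 2387 (log2 change 0.02, 95% interval -0.47 to 0.50). Among G2/M genes 16 of 20 were higher in Krt14 8-week than in Inv libraries, against 2 of 30 S phase genes.

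Between 8 and 6 weeks with the Krt14 driver, 1 of the 10 genes changed, upward, where 4.88% of all genes did, 4.02% upward and 0.855% downward. That split was 885 genes higher and 188 lower, and it was 597 and 516 after median of ratios rescaling. Both 8-week libraries were above both 6-week libraries for 7 of the 10 genes and below for 0, against 38.3% and 18.2% of all genes. Tet3 had 8983 and 8885 counts in Krt14 8-week libraries, against 6867 and 6064 in Krt14 6-week libraries (log2 change 0.47, SE 0.11, limma adjusted p = 0.0353). The groups did not overlap, but the median of all genes was also 0.14 higher at 8 weeks, and after median of ratios rescaling the change of Tet3 was 0.32 and did not pass (limma adjusted p = 0.0754). It was further lost without either Krt14 8-week library, either LOF library, either Inv library or Krt14 6-week replicate 2, at changes of 0.38 to 0.48. Ezh1 had 914 and 1000 counts at 8 weeks, against 767 and 706 at 6 weeks, which did not pass (log2 change 0.38, SE 0.15, limma adjusted p = 0.161). It passed without either GOF library at the same change (limma adjusted p of 0.0486 and 0.0493).

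Set against the Krt14 8-week libraries, which differ from the GOF libraries in driver as well, 2 of the 10 genes were higher and 4 lower in GOF libraries, where 27.7% of all genes changed, 15.2% upward and 12.5% downward. By library values 3 were above and 6 below without overlap, against 35.0% and 25.6% of all genes. This comparison shares the GOF libraries with the one against the Inv group and is no independent repeat of it. The log2 changes were -0.98 for Dnmt1, -1.42 for Uhrf1, -1.53 for Hells and -1.15 for Ezh2, beside -0.95, -1.22, -1.60 and -1.14 against Inv libraries. Ezh1 rose by 0.82 (limma adjusted p = 0.00201) and Tet2 by 0.52 (limma adjusted p = 0.00312), and both calls held in all 20 alternative settings. Without GOF replicate 2 the change of Ezh2 was -0.70 (limma adjusted p = 0.00129). Tet1 was -0.90 and did not pass (limma adjusted p = 0.0642), but it was -1.55 and passed without GOF replicate 1 (limma adjusted p = 0.000304), where Dnmt3a at -0.33 and Dnmt3b at -0.81 passed as well.

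In the order of group means, GOF was the lowest group for Dnmt1, Uhrf1, Hells, Tet1 and Ezh2 and the highest for Tet2, Tet3 and Ezh1. For Dnmt1 the order ran from Krt14 8-week over Krt14 6-week and Inv to LOF and GOF, and the first 3 groups overlapped each other while LOF (5189 ± 56.6, SD, n = 2) and GOF (3260 ± 536, SD, n = 2) each stood clear of the group above. For Ezh1 the order was GOF (1710 ± 337), LOF (1362.5 ± 146), Inv (1110 ± 62.2), Krt14 8-week (957 ± 60.8) and Krt14 6-week (736.5 ± 43.1, SD, n = 2 each), with no overlap between neighbours. The gap between GOF and LOF was narrow, at 1472 against 1466 counts, and that pair was not tested. Krt14 8-week did not pass against Inv (limma adjusted p = 0.352) or against Krt14 6-week libraries (limma adjusted p = 0.161). For Ezh2 the Krt14 8-week, Inv and LOF groups overlapped at means of 2322.5, 2298.5 and 2261 counts, and Krt14 6-week (1941.5 counts) and GOF (1095.5 counts) stood below. For Tet1 the Krt14 6-week (443 counts) and GOF (380.5 counts) groups overlapped and the groups above them did not. For Dnmt3a all neighbours in the order overlapped.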

How the data were processed

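Bulk RNA-seq was measured in 10 libraries, 2 in each of 5 groups taken from the sample titles. Reads were processed with STAR and HTSeq on GRCm38, per the submitters' processing notes; versions, annotation and strandedness were not given in the sources used here. Values as deposited are a score: normalized counts that the authors scaled to a near-constant library total (20011195 to 20014054) and rounded to whole numbers. Of the values in a library, 99.3% to 99.9% fell on whole multiples of 1 read, giving 7693153 to 8870758 reads, so 3 reads correspond to 6.76 to 7.80.

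Genes that reached 10 in 2 or more libraries were kept, and log2(value + 1) was fitted in limma 3.58.1 (R 4.3.3, trended variance) over all 5 groups, with Benjamini-Hochberg adjustment per comparison and a threshold of 0.05. Fold changes are on that scale, which understates changes of low genes. Residual degrees of freedom were 5. Tables and figures were made with Python 3.11.15, pandas 2.3.3, scipy 1.17.1 and matplotlib 3.10.9. Counts were tested with limma rather than edgeR because the values are normalized. On simulated data for the GOF against Inv comparison (21449 genes), 27% of 2-fold and 64% of 4-fold changes were recovered with 2 false calls. The simulation gave each gene the same spread in all groups, whereas the real GOF libraries were the least alike. It therefore does not measure how many calls are false in the real comparison. For lengths, 49326 of 49671 identifiers matched the annotation.

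The 10 members and all gene lists were chosen with earlier results of these data known. Named beside the members were Birc5, Xist, Ddx3y, Mki67, Pcna and keratinocyte markers; from each partner list up to 3 changed genes with the smallest p per comparison, from the S phase and G2/M lists up to 2; and for each member the 2 genes with the highest Pearson r. Some genes that this rule names are not reported here. Replicate numbers did not pair the libraries. Alternatives were the pseudocount, the filter, rescaling, quantile normalization, fitting only the groups compared, voom on recovered reads, a replicate block and leaving out each library.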

Additional observations from a re-analysis of the deposited data

How the results depend on the processing

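Of 1200 values of the 10 genes under 20 alternatives, 28 changed sign, with 0 of them past the threshold, and 10 of 23 calls held throughout. The causes were not tested. With no filter, fewer genes passed: 3862 for LOF, 1359 for GOF against Inv, 2218 for Krt14 against Inv, 263 for 8 against 6 weeks and 3588 for GOF against Krt14, with 1 and 3 members called in the LOF and GOF against Inv comparisons. Fitting only the groups compared gave 583, 6501, 2366 and 3301 genes in the last 4 comparisons, and 3, 2 and 2 members in GOF against Inv, Krt14 against Inv and 8 against 6 weeks. For 8 against 6 weeks, quantile normalization gave 468 genes and voom 701. Voom with median of ratios, chosen after seeing the data, called 2 members for Krt14 against Inv.

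Leaving out 1 library gave 3759 to 8492 genes and 1 to 8 members for LOF, 913 to 6198 genes and 3 to 7 members for GOF against Inv, 1897 to 5951 genes and 0 to 2 members for Krt14 against Inv, 77 to 2360 genes and 0 to 2 members for 8 against 6 weeks, and 3308 to 7293 genes and 6 to 9 members for GOF against Krt14.

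The sign changes concerned log2 changes near 0. For Krt14 against Inv, median of ratios gave 0.0229 for Hells, 0.0473 for Dnmt3a and 0.0676 for Tet3 (0.0221, 0.0474 and 0.0676 with voom), and quantile normalization gave -0.0400 for Dnmt1. For 8 against 6 weeks, median of ratios gave -0.136 for Dnmt1, -0.105 for Uhrf1 and -0.0182 for Dnmt3b (-0.136, -0.106 and -0.0159 with voom). For the difference of the LOF and GOF effects, Tet2 was -0.112 under median of ratios and -0.110 with voom. Leaving out 1 library, the ranges that cross 0 were -0.0618 to 0.0248 for Dnmt3a in LOF. For Krt14 against Inv they were -0.0202 to 0.0663 for Dnmt1, -0.156 to 0.0214 for Hells, -0.105 to 0.0187 for Dnmt3a, -0.0800 to 0.0345 for Tet3 and -0.0395 to 0.0716 for Ezh2. For 8 against 6 weeks they were -0.0318 to 0.0547 for Dnmt1, -0.0142 to 0.0974 for Uhrf1 and -0.171 to 0.00652 for Hells, and for the difference -0.0746 to 0.171 for Tet2.

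Same-numbered libraries deviated together at correlations of -0.054 to 0.041, so the numbers are not a pairing. With the replicate number as a block, 6707, 3414, 4249, 987 and 6042 genes and 4, 6, 0, 1 and 7 members were called in the 5 comparisons. The calls that moved were Tet2 in LOF (limma adjusted p = 0.0603) and Tet1 in GOF against Krt14 (limma adjusted p = 0.0431).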

Other observations

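Dnmt3l, the catalytically inactive partner of the de novo methyltransferases, is not among the 10 genes and was singled out after its values were seen. It had 13 and 3 normalized counts in LOF libraries, against 201 and 246 in Krt14 6-week libraries (limma adjusted p = 0.00017). In GOF libraries it had 17 and 8 counts, against 48 and 25 in Inv libraries of the same driver, which did not pass (limma adjusted p = 0.119). Against the 105 and 138 counts of Krt14 8-week libraries, where the driver differs too, the GOF libraries were lower (limma adjusted p = 0.00243). Both Krt14 groups stood above every other library. No fold is given, since 3 reads correspond to 6.76 to 7.80 and 1 LOF library was below that. Aire overlaps 2.24% of the Dnmt3l exon bases on the opposite strand and had 0 to 20 counts.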
